A study of Mus musculus with 46 samples.

Results

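Rpb2 is the second largest subunit of RNA polymerase II, the enzyme that transcribes protein-coding genes and many noncoding RNAs, so a peak of Rpb2 in chromatin immunoprecipitation marks a place where the polymerase is loaded or slowed. The peaks described here are those of the Rpb2 list of Ki67-positive microglia from mice at postnatal day 8 (PND8) whose midpoint lay over 2500 bp from the start of every gene in the study's RNA count table and outside every gene interval of that table. There were 9615 such peaks among the 31602 of the list, or 30.4%. A further 11996 peaks (38.0%) lay within 2500 bp of a start and 9991 (31.6%) inside a gene. The 9615 are called distal peaks below. They were chosen from that 1 list by position, and their tag counts in it are given as a description.

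Outside genes, polymerase II is found at enhancers, which are stretches of open chromatin that carry acetylation of histone H3 at lysine 27 (H3K27ac) and raise transcription of genes at a distance. It is also found at starts of noncoding RNA genes, and downstream of gene ends, where it runs past the polyadenylation site before it is released. Methylation of the same histone at lysine 4 in its trimethyl form (H3K4me3) marks starts, and the assay for transposase-accessible chromatin (ATAC-seq) marks open chromatin. Microglia are the resident macrophages of the brain, and Ki67 is a nuclear protein of cycling cells.

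All samples were microglia of male C57BL/6 mice, sorted on CD11b, CD45 and CD44. The immunoprecipitation lists came from wild-type mice whose fixed cells were stained with an antibody to Ki67: 3 for Rpb2 (adult untreated mice of 60 and 65 days, labelled Ki67-negative, and 1 from PND8 Ki67-positive cells) and 12 for H3K27ac. The H3K27ac lists were 2 each of untreated adults of 60 and 65 days, PND8 cells of either Ki67 state, cells of either Ki67 state from 90-day mice after 4 weeks of cuprizone (a copper chelator that strips myelin), and Ki67-positive repopulating cells of 90-day mice. Repopulating cells were taken 3 days after the end of 17 days on a diet with PLX5622, an inhibitor of the receptor Csf1r that depletes microglia. Some ages conflict: the header of repopulating H3K27ac replicate 1 names an input of 80 days, and the title of adult Rpb2 replicate 2 says 60 days, not 65. The 2 H3K4me3 lists came from untreated adults of 75 days, and the 3 ATAC-seq lists from an untreated adult of 80 days, PND8 Ki67-positive cells and Ki67-positive repopulating cells at 75 days, 1 each. The titles of the last pair name the Ki67-rfp reporter allele, while their genotype field says wild type. RNA came from 10 libraries, 2 each of untreated wild-type adults of 90 days (labelled Ki67-negative) and of Ki67-negative and Ki67-positive cells, sorted by a Ki67-rfp reporter allele, from PND8 mice and from 75-day repopulating mice. The adult RNA libraries therefore differ from the other 8 in genotype and age, and carry a numeric code in the column headers that no other group has, so these cannot be told apart from the difference between conditions.

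The PND8 Rpb2 library held 26823101 mapped tags with 8.57% in peaks, against 18535188 and 26312426 tags with 6.78% and 3.19% in peaks in the adult Rpb2 libraries, whose lists held 14550 and 10544 peaks. The H3K27ac lists held 19572 to 30539 regions from 15233543 to 22888521 tags, the ATAC-seq lists 71642 to 95411, and the RNA libraries 6865903 to 10287876 counts. The list's header names the H3K27ac input of PND8 Ki67-positive replicate 1 as the control of the PND8 Rpb2 peaks, while the labels list an Rpb2 input. In the RNA, the microglial genes Csf1r and P2ry12 were at 1267 to 1783 and 750.5 to 987.8 CPM (counts scaled to the library total) in every library, and Mki67 was at 13.4 and 11.0 CPM in adults, 242.2 and 282.0 in PND8 Ki67-negative cells and 920 and 1108 in PND8 Ki67-positive cells.

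Some distal peaks stood near noncoding genes that the count table does not hold, so their sequences are shown first. Of the 9615 peaks, 61 lay within 5000 bp of a microRNA hairpin. The mature microRNAs below lie beside 7 of these 61 peaks, including the 5 of highest tag count, from RefSeq for GRCm38.p6 (mm10), 5′ to 3′, with the seed (bases 2 to 8) in capitals. They were chosen after their values were seen. No pair of the 8 shares a seed. In the RefSeq table the let-7i-5p seed is carried by 13 mature mouse microRNAs and the miR-322-5p seed by 11.
mmu-miR-21a-5p: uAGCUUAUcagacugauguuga
mmu-miR-142a-5p: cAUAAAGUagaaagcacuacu
mmu-miR-142a-3p: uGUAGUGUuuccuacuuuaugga
mmu-miR-22-3p: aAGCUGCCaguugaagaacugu
mmu-miR-26b-5p: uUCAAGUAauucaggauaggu
mmu-miR-23a-3p: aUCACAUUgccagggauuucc
mmu-let-7i-5p: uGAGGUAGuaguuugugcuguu
mmu-miR-322-5p: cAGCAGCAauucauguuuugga
MiR-142 is a microRNA of blood-lineage cells and miR-21a one that is induced in many activated cells. The peak beside Mir21a (chr11:86581221-86581411) had a normalised tag count of 232.3, scaled by the authors to 10000000 tags, and its midpoint was 2796.5 bp from the middle of the hairpin and 2946 bp past the end of Vmp1. The peak beside Mir142 (chr11:87755496-87755686) had 225.9 and lay 1304.5 bp away. The peaks beside Mir22, Mir26b, Mir23a and Mir322 had 93.9, 86.9, 71.2 and 45.1 tags at 2077, 3127, 4894 and 2893 bp, and the peak on Mirlet7i had 55.9 with its midpoint 14 bp from the middle of the hairpin. Those of Mir21a and Mir26b lay downstream of their hairpins, and that of Mir26b was 194 bp past the end of Ctdsp1. The Mir21a peak was in 3 of 3 ATAC-seq lists and both adult Rpb2 lists but in 5 of 12 H3K27ac lists, while that of Mir142 was in 11 of 12 and those of Mir22, Mir26b, Mir23a, Mirlet7i and Mir322 in 12 of 12. The peak beside Mir22 was in no ATAC-seq list.

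The promoters below, 250 bases before to 50 after the start, belong to long noncoding RNA (lncRNA) genes with a distal peak at their start, and are also from RefSeq for GRCm38.p6. Capitals mark the CAAT box (CCAAT), the TATA box (TATAAA), the GC box (GGGCGG) and the PU.1 site (GAGGAAGT) on either strand, and the genes were chosen after their values were seen.
Malat1 promoter, chr19:5802623-5802922, minus strand: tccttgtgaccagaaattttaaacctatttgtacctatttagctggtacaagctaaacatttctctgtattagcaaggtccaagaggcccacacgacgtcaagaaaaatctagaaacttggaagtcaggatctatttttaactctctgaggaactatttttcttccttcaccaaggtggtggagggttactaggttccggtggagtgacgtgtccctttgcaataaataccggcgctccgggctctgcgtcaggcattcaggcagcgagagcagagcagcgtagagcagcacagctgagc
Snhg1 promoter, chr19:8723237-8723536, plus strand: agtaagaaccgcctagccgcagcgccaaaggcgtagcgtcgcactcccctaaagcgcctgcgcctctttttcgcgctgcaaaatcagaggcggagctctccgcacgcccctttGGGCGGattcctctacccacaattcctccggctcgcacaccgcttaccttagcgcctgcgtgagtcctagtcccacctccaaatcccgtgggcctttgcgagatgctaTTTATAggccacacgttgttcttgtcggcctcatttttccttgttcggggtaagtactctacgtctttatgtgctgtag
Chaserr promoter, chr7:73558346-73558645, minus strand: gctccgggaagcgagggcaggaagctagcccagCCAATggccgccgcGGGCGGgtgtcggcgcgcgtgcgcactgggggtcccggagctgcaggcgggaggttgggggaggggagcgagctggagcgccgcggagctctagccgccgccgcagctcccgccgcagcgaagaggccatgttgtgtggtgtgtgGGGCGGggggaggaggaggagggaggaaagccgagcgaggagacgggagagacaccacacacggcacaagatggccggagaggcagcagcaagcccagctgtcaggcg
Snhg3 promoter, chr4:132353637-132353936, minus strand: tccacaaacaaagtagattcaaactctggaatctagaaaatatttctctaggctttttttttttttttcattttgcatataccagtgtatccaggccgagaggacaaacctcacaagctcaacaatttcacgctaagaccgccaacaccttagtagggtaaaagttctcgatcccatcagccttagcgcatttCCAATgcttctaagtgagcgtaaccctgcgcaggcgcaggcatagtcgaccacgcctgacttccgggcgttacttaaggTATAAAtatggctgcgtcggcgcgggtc
Mir22hg promoter, chr11:75461289-75461588, plus strand: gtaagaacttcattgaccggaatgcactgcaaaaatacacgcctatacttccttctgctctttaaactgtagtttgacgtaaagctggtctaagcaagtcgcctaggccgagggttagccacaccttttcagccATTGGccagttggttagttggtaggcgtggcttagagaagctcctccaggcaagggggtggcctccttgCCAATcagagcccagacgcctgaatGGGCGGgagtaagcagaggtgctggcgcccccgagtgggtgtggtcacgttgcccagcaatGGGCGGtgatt
Malat1, an abundant nuclear lncRNA, carried a peak of 605.4 tags (chr19:5802547-5802737), 30 bp from its start, and its window held none of these motifs. Snhg1 and Snhg3, host genes of small nucleolar RNAs, carried 222.9 and 129.4 tags, and the windows of both held 1 TATAAA, with 1 GGGCGG at Snhg1 and 1 CCAAT at Snhg3. Chaserr, which lies upstream of Chd2, carried 164.0 tags and its window held 1 CCAAT and 2 GGGCGG. Mir22hg, the host of Mir22, carried 93.9 tags and held 2 CCAAT and 2 GGGCGG. Among the 264 lncRNA windows that a distal peak overlapped, 9.85% held TATAAA, 37.5% CCAAT, 33.3% GGGCGG and 9.09% GAGGAAGT, a sequence that the macrophage factor PU.1 binds. Among all 11588 lncRNA windows the shares were 15.5%, 36.0%, 16.3% and 3.33%, and among all 32851 windows 13.6%, 37.4%, 35.7% and 3.20%. The windows with a peak were also richer in G and C, with a median of 53.3% against 48.3% over all lncRNA windows, and a match is a description of the letters only.

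The distal peaks were weaker than those at starts and close to those inside genes. Their median was 12.3 normalised tags (quartiles 8.95 and 19.4, range 3.73 to 620.7), against 30.2 within 2500 bp of a start and 11.6 inside genes. The midpoint of a distal peak lay a median of 26032 bp from the nearest start of the count table (quartiles 11583 and 65154 bp), and 1527 lay over 100000 bp away. The nearest gene edge was an end for 4748 peaks and a start for 4857, and 10 peaks lay on sequences with no gene of the count table. Distal peaks also stood close together: 3747 (39.0%) had another within 5000 bp. RefSeq, which holds more genes than the count table, placed 2888 of them inside a gene of any kind, 1809 inside a lncRNA gene and 1014 inside a protein-coding gene, and left 6727 (70.0%) outside every RefSeq gene.

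The strongest distal peaks lay on small nuclear RNA (snRNA) genes, whose products build the spliceosome, and on lncRNA starts. The highest, 620.7 tags, lay on the snRNA gene Gm25099 (chr4:117189896-117190086), 7367 bp before the start of Kif2c. The Malat1 peak was next. The peak at Rnu5g, a gene of the U5 snRNA, had 592.4 tags (chr9:65201694-65201884), and one on the snRNA gene Gm25313 had 435.4 (chr9:65196540-65196730). The other 2 of the highest 6 lay at no RefSeq gene and are described with the input below. All 4 of those at named noncoding genes were in both adult Rpb2 lists and both H3K4me3 lists. The peaks at Malat1 and Rnu5g overlapped none of the 3 ATAC-seq lists, although they were in 8 and 11 of the 12 H3K27ac lists.

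Sorted by what lay at the peak, 135 distal peaks stood within 250 bp of a small RNA gene and had a median of 22.4 tags. Of these, 25 were at snRNA genes, reaching 25 of the 1004 snRNA genes of RefSeq, with a median of 48.1 tags. The tRNA genes, which RNA polymerase III transcribes in the nucleus, had 95 peaks at 107 of 430 genes (24.9%, exact 95% interval 20.9 to 29.3), with a median of 19.4 tags. The 95 include 1 peak at the tRNA genes TrnT and TrnP of the mitochondrial genome. Of the tRNA peaks, 92 were in an H3K4me3 list and 85 in an ATAC-seq list, while of the snRNA peaks 19 and 14 were. Peaks at microRNA genes numbered 10, and 1 peak of the 135 counts under 2 kinds. The other 6 included Scarna2, a guide RNA of Cajal bodies (282.2 tags), Terc, the RNA of telomerase (56.3 tags), and the Y RNA genes Rny1 and Rny3 (20.9 and 11.2 tags). A further 345 distal peaks lay within 500 bp of a lncRNA start (median 16.8 tags) and 126 within 500 bp of a RefSeq coding start that the count table does not use (median 21.3). The latter included the peak at Cbfa2t3, 146 bp from such a start. On chromosome 18, microRNA hairpins, starts of lncRNA genes and RefSeq coding starts were not used here, so the counts of 61, 345 and 126 peaks do not cover it. Genes of snRNA and tRNA families have near-identical copies, so which copy a peak belongs to is uncertain. Within 5000 bp past a gene end and at none of these lay 1777 peaks (18.5%) of 1596 genes, with a median of 11.2 tags, and 7223 (75.1%) lay elsewhere, with a median of 12.3. The plot of tag counts by place shows that the ranges of all 5 places overlapped.

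**Figure D1:**
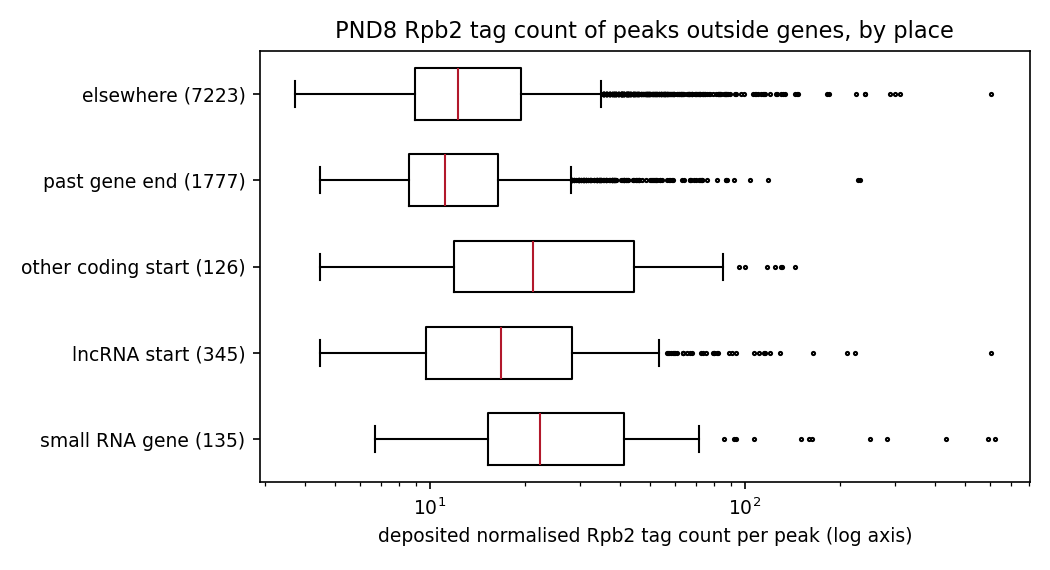
Normalised Rpb2 tag count of each distal peak of the PND8 list (horizontal log axis) by place (rows, with the number of peaks). Boxes show quartiles, the line the median, whiskers 1.5 times the interquartile range and points single peaks; the median was 22.4 at small RNA genes and 11.2 past gene ends, and the places overlapped.

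Most distal peaks carried open and acetylated chromatin. Of the 9615, 82.4% overlapped at least 1 of the 3 ATAC-seq lists by 1 bp or more, against 83.3% of peaks near starts and 70.8% of peaks inside genes. By list, the share of distal peaks was 76.8% in the adult list, 75.9% in the PND8 list and 78.6% in the repopulation list, and 6817 (70.9%) were in all 3. Of the 12 H3K27ac lists, all overlapped 3409 distal peaks (35.5%), some but not all overlapped 3924 and none overlapped 2282 (23.7%). Both marks were present at 6885 (71.6%) and neither at 1244. H3K4me3 set the distal peaks apart from those at starts: 30.0% overlapped either adult H3K4me3 list, against 94.3% near starts and 19.1% inside genes. These shares rest on 1 or 2 libraries a group, and no test was made of them.

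In each of the 12 H3K27ac libraries the share of distal peaks overlapped lay between the other kinds. It ran from 44.8% to 68.6%, against 77.4% to 94.3% for peaks near starts and 40.5% to 59.6% for peaks inside genes. The mean difference from peaks near starts was -29.18 percentage points and from peaks inside genes 6.517, and both held in 12 of 12 libraries (exact sign-flip permutation test over libraries, two-sided, p = 0.0004883 each, the smallest that 12 libraries can give). This test was added after the data were seen, and all libraries were read against the same 31602 peaks. With only the distal peaks above the median of the authors' peak scores, set against all peaks of the other kinds, the differences were -9.89 and 25.8 points. The order of distal peaks and peaks inside genes changed with tag count. In 4 classes cut at the quartiles of the whole PND8 list, any H3K27ac list overlapped 59.2%, 74.4%, 91.6% and 96.4% of distal peaks. For peaks inside genes the shares were 41.9%, 65.3%, 94.1% and 97.8%, from the lowest class to the highest. Beyond 5000 bp of every start and gene they were -22.02 and 13.68.

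**Figure D2:**
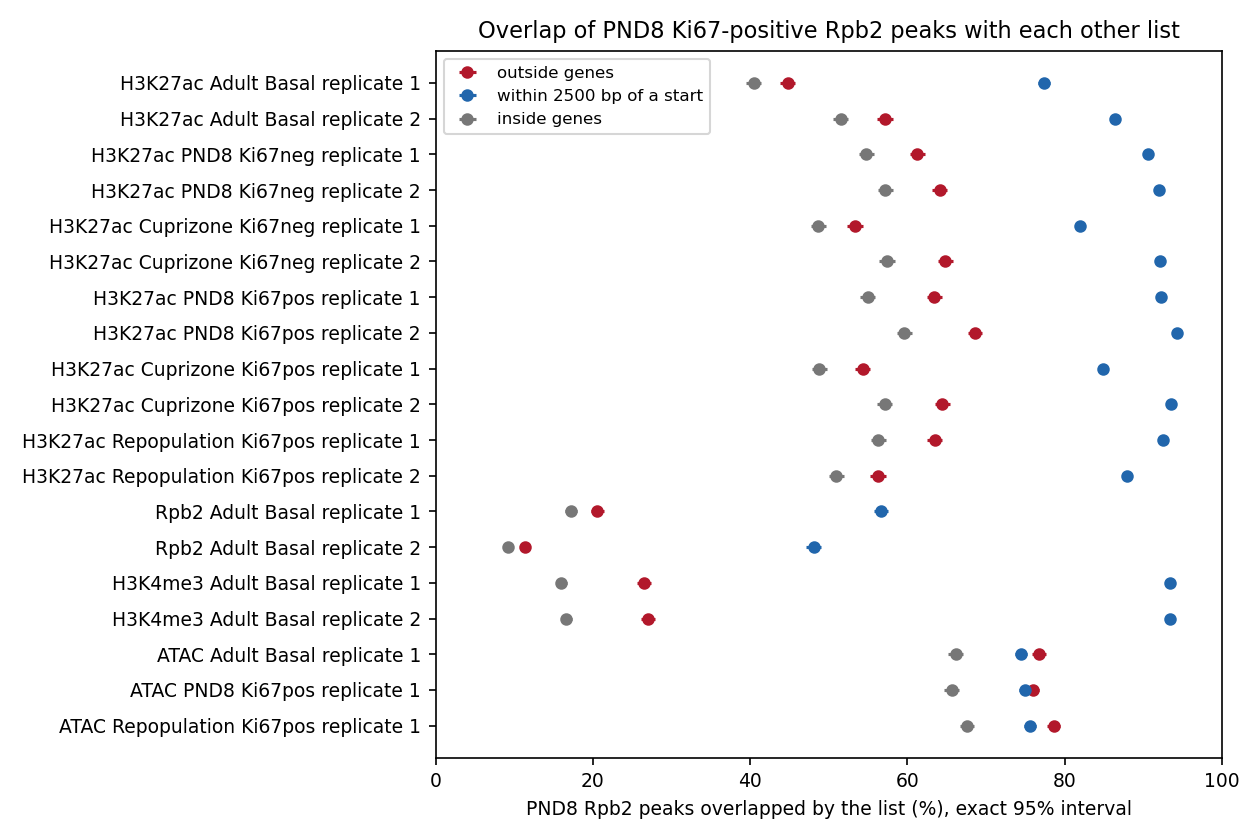
Share of PND8 Rpb2 peaks (horizontal axis, %) overlapped by each other H3K27ac, Rpb2, H3K4me3 and ATAC-seq list (rows), for distal peaks (red), peaks within 2500 bp of a start (blue) and peaks inside genes (grey), with exact 95% intervals for counting error. The distal peaks ran from 44.8% to 68.6% over the H3K27ac lists, above the peaks inside genes and below those near starts in each.

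Chromatin differed between distal peaks close past a gene end and those before a start. The first set was the 1777 peaks within 5000 bp past an end and at no small RNA gene, lncRNA start or coding start. Of these, 45.0% overlapped any ATAC-seq list, 38.0% any H3K27ac list and 14.8% either H3K4me3 list. The second was all 4857 peaks before a start, at any distance and with such places kept, of which 92.4% overlapped any ATAC-seq list. Across the 12 H3K27ac libraries the share past an end was 21.7% to 33.0% and that before a start 51.3% to 77.8%, without overlap. The mean difference was -39.87 points and held in 12 of 12 libraries (exact sign-flip permutation test over libraries, two-sided, p = 0.0004883, the smallest possible). This test was added after the data were seen, and it does not part side from distance. From 2500 to 5000 bp of the gene edge, 52.3% past an end and 84.5% before a start were in an H3K27ac list. From 10000 to 50000 bp the shares were 83.5% and 86.6%.

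The share with chromatin marks rose with distance past the end. In the first 1000 bp, 38.1% of 488 peaks were in an ATAC-seq list and 30.5% in an H3K27ac list. From 1000 to 2500 bp the shares of 710 peaks were 40.6% and 34.4%, from 2500 to 5000 bp those of 637 peaks were 58.7% and 52.3%, and from 5000 to 10000 bp those of 606 peaks were 80.7% and 71.5%. Beyond 50000 bp they reached 91.5% and 87.8%. Before a start no such slope was seen: ATAC-seq shares stayed between 90.4% and 93.0% and H3K27ac shares between 83.7% and 89.2% in 4 distance classes. Of the 1244 distal peaks in no H3K27ac and no ATAC-seq list, 917 lay within 5000 bp past a gene end and 35 were in an adult Rpb2 list.

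**Figure D3:**
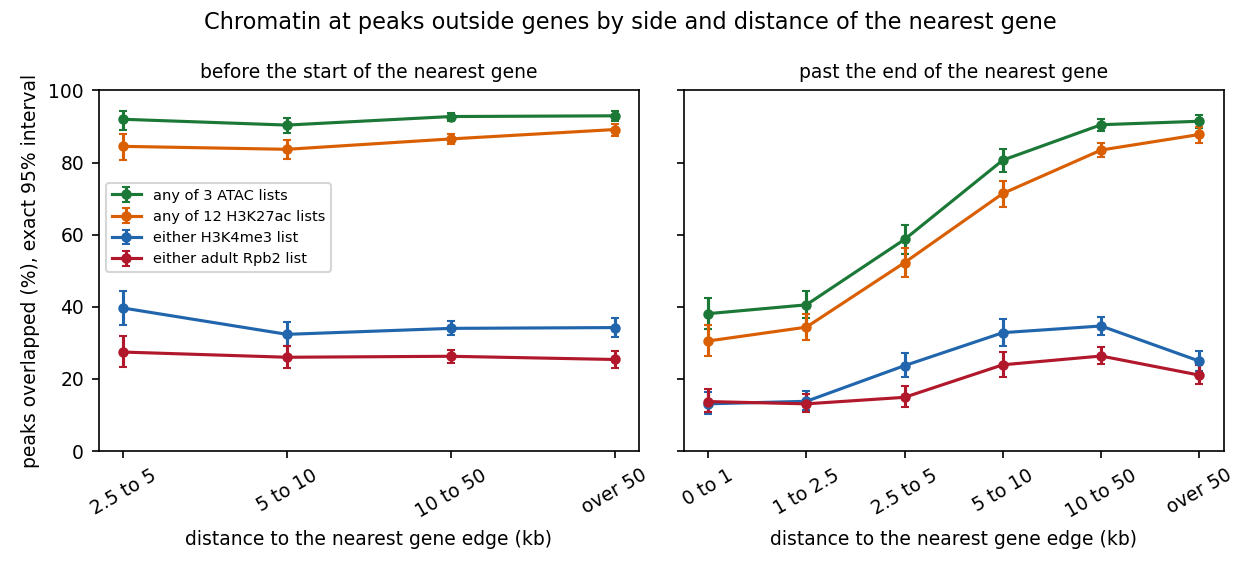
Share of distal peaks (vertical axis, %) in any ATAC-seq (green), any H3K27ac (orange), either H3K4me3 (blue) or either adult Rpb2 list (red) by distance to the nearest gene edge in kb, before a start (left) and past an end (right), with exact 95% intervals for counting error. ATAC-seq shares were 38.1% in the first kb past an end and 90.4% to 93.0% before a start.

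Fewer distal peaks than peaks at starts were shared with the adult Rpb2 lists. Either adult list overlapped 2227 (23.2%) of the distal peaks, against 64.6% of peaks near starts and 19.5% of peaks inside genes. Adult replicate 1 overlapped 20.6% and replicate 2, which carries the same header code as the PND8 library, 11.4%, 846 were in both, and 7388 (76.8%) were in neither. In reverse, of the adult peaks that met the same position rule, 1978 of 2907 (68.0%) in replicate 1 and 1092 of 1737 (62.9%) in replicate 2 overlapped a peak of the PND8 list. The adult lists are shorter, and tag count moved with the overlap. In 4 classes cut at the quartiles of tag count of the whole PND8 list, either adult list overlapped 5.25%, 13.2%, 36.7% and 74.3% of distal peaks from the lowest to the highest class. In the highest class the share was 87.4% near starts and 67.8% inside genes. The H3K4me3 share of distal peaks rose from 19.7% to 61.7% over the same classes. With 1 PND8 library the difference between ages has no replicate check.

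**Figure D4:**
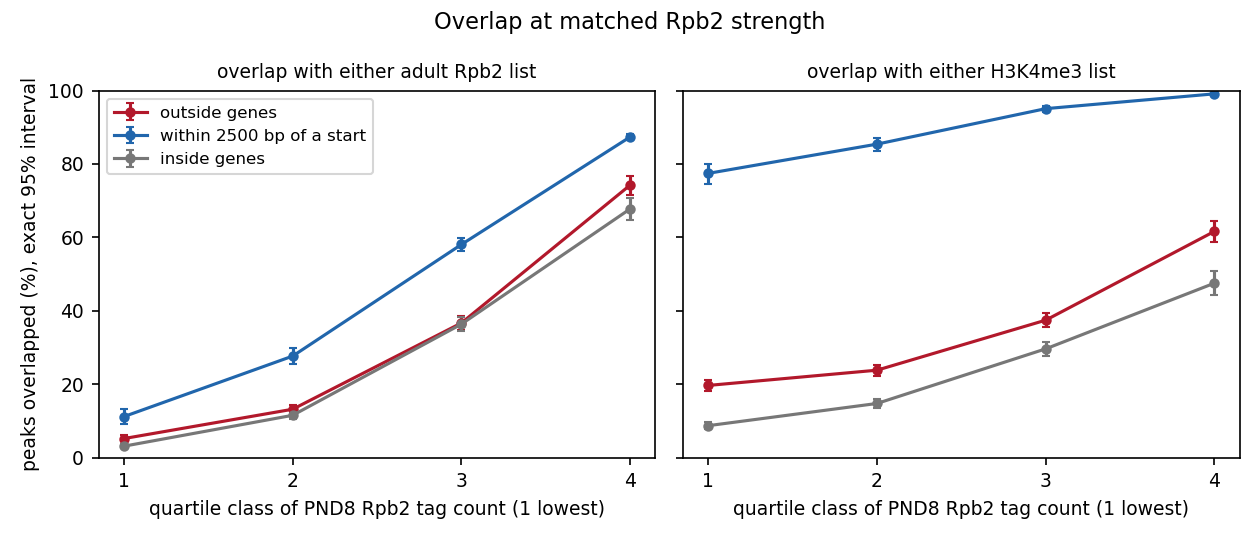
Share of PND8 Rpb2 peaks (vertical axis, %) in either adult Rpb2 list (left) and either adult H3K4me3 list (right) by quartile class of PND8 tag count, for distal peaks (red), peaks near starts (blue) and peaks inside genes (grey), with exact 95% intervals for counting error. For distal peaks the adult Rpb2 share went from 5.25% in the lowest class to 74.3% in the highest.

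H3K27ac overlap of the distal peaks was lower in both libraries of untreated adults than in all 4 of PND8, while the 8 libraries outside PND8 overlapped it in range. In untreated adults it was 44.8% and 57.2%, in PND8 Ki67-negative cells 61.3% and 64.1%, and in PND8 Ki67-positive cells 63.4% and 68.6%. After cuprizone it was 53.4% and 64.9% in Ki67-negative and 54.3% and 64.5% in Ki67-positive cells, and in repopulating cells 63.5% and 56.3%. The mean of the 4 PND8 libraries was 64.4% ± 3.09 (SD, n = 4) against 57.3% ± 6.85 (SD, n = 8), a difference of 7.023 points (exact permutation test over libraries, two-sided, p = 0.09899). Within the header codes that held both kinds the difference was 8.515 and 6.035 points. Taken relative to the peaks near starts in the same library, the difference was 1.796 points (exact permutation test, two-sided, p = 0.1232), and 0.485 and 2.315 within codes. With only the 19572 highest-scoring regions of each list, the length of the shortest, the first difference was 2.361 points (exact permutation p = 0.01414) and the second turned to -1.807 (p = 0.2545, the same exact permutation test). Counting peaks within 1000 bp of a region, the second was 2.716 (p = 0.04646, the same exact permutation test). The distal peaks were chosen from a PND8 list, and no set chosen from an adult list was compared in this way. The choice of peaks and the age of the library therefore cannot be told apart here.

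Within PND8 and within cuprizone, the test did not separate the Ki67 states at the distal peaks. The mean difference in H3K27ac overlap was 1.812 points (exact permutation test within setting, two-sided, p = 0.6111; the smallest p this design allows is 0.05556). It was 3.34 points at PND8, where it was 2.16 and 4.52 between libraries of the same header code. After cuprizone it was 0.28, with 0.95 and -0.39 between such libraries. With the replicate number as a block the same difference had an exact permutation p of 0.25. Without Ki67-negative cuprizone replicate 1 the difference was -1.056, and without Ki67-positive cuprizone replicate 2 it was -0.7228.

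A core of 628 of the 9615 distal peaks was in both adult Rpb2 lists, all 12 H3K27ac lists and all 3 ATAC-seq lists. The strongest 6 of them were those at Gm25099 and Gm25313, the Scarna2 peak, the peak at the snRNA gene Gm24265 5158 bp before Sirt4 (250.2 tags), the peak 41 bp from the start of the lncRNA E330020D12Rik (211.4 tags), and a peak of 184.5 tags inside a longer RefSeq form of Dgkz (chr2:91965401-91965591), a diacylglycerol kinase. RNA of the genes of the nearest starts varied in direction. Dgkz rose by 0.30 on the log2 scale from adult to PND8 Ki67-positive cells and Sirt4, a mitochondrial sirtuin, fell by 0.50 (edgeR adjusted p = 0.00964 and 0.0396). Parp16, whose start is the nearest to both snRNA peaks on chromosome 9, fell by 0.51 (edgeR adjusted p = 0.0351), and Tmem167b and Shcbp1l did not pass (-0.25 and 0.47; edgeR adjusted p = 0.155 and 0.491). Each of the 3 calls was lost without adult replicate 2 and without PND8 Ki67-positive replicate 2, and those of Sirt4 and Parp16 also without replicate 1 of either group, with edgeR adjusted p of up to 0.0756 for Dgkz, 0.135 for Sirt4 and 0.205 for Parp16.

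Some distal peaks had chromatin marks at PND8 and were absent from the untreated adult Rpb2, H3K27ac and ATAC-seq lists. In neither adult Rpb2 list, neither adult H3K27ac list nor the adult ATAC-seq list, but in both PND8 Ki67-positive H3K27ac lists and the PND8 ATAC-seq list, were 59 of the 9615 distal peaks. The strongest were a peak of 25.4 tags 6672 bp before Plekhg5 (chr4:152080096-152080286), the peak of 23.9 tags at Cbfa2t3, a transcriptional corepressor gene (chr8:122699160-122699350), and one of 20.5 tags 22708 bp past Mrps23, a mitochondrial ribosomal protein gene. Next were a peak of 19.4 tags 5657 bp before Kif18b, a kinesin of mitosis (chr11:102930686-102930876), one of 18.6 tags 109142 bp before Ccdc54, and one of 18.3 tags 1374 bp past Stx4a, a membrane fusion gene. Most of them also carried H3K27ac in other settings. The Plekhg5 and Kif18b peaks were in 5 of the 12 H3K27ac lists each, which were the 4 of PND8 and 1 of cuprizone. The Mrps23 and Stx4a peaks were in 9 each, with 3 of cuprizone and 2 of repopulation, and the Cbfa2t3 peak was in 3, all of PND8. The Ccdc54 peak was in the 2 PND8 Ki67-positive lists and in no other of the 12. The repopulation ATAC-seq list held the peaks at Mrps23, Kif18b, Ccdc54 and Stx4a. Leaving the ATAC-seq conditions out, which rest on 1 list each, 699 of the 9615 were in both PND8 Ki67-positive H3K27ac lists and in no untreated adult Rpb2 or H3K27ac list. The same counts for peaks near starts or inside genes are not given here.

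Kif18b RNA was at 1.16 and 1.47 CPM in adults, 28.2 and 47.1 in PND8 Ki67-negative cells and 132 and 138 in PND8 Ki67-positive cells, so the groups did not overlap. It rose by 6.67 ± 0.304 (SE) on the log2 scale from adult to PND8 Ki67-positive cells (edgeR adjusted p = 2.51e-09). Plekhg5 was at 57.6 and 59.3 CPM in adults and 142.8 and 95.4 in PND8 Ki67-positive cells, a rise of 1.03 ± 0.179 (edgeR adjusted p = 0.000379), while Cbfa2t3, Mrps23 and Stx4a did not pass (log2 differences -0.10, 0.08 and -0.10; edgeR adjusted p = 0.357, 0.683 and 0.464). Ccdc54 was below the count filter.

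Of the distal peaks in no H3K27ac and no ATAC-seq list, the strongest had 86.9 tags, 3538 bp past the end of Capza2, an actin capping protein gene (chr6:17670415-17670605). Another, of 52.2 tags, lay 1310 bp past the end of Efhd2 (chr4:141856737-141856927). Of the other 4 named by the same rule, 2 lay on an unplaced sequence (80.2 and 47.7 tags), 1 on the mitochondrial genome (71.2 tags) and 1 of 46.2 tags 2140268 bp from the nearest start, that of Cdh20, with an input level of 6.507 normalised tags. Input was high at some distal peaks. Over 5 normalised input tags lay at 13 of them. The highest was a peak of 603.6 tags 284442 bp before Pex2 with 44.42 input tags, which gives a fold of 13.59 over input where the Malat1 peak had 340.74. Another, of 309.4 tags 170756 bp past Samd9l, had 37.92 input tags and a fold of 8.16. Both were in 3 of 3 ATAC-seq lists, no H3K27ac list and no H3K4me3 list. Without the 13 and the peaks on sequences without genes, either adult Rpb2 list overlapped 23.1% of distal peaks, in place of 23.2%.

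Past the ends of genes, the strongest peaks after that at Mir21a, chosen after their values were seen, had 227.8 tags 4647 bp past Gpr157, an orphan receptor gene, 118.6 tags 2049 bp past Fgd2, a Cdc42 exchange factor gene, and 103.6 tags 2831 bp past Rpl12, a ribosomal protein gene. Then came 92.1 tags 1842 bp past Cdkn1b, a brake on the cell cycle, and 1725 bp from the start of the lncRNA Lockd. Each of these was in 3 ATAC-seq lists, and in 12 H3K27ac lists (11 at Cdkn1b), unlike the peak past Capza2, which was in none. The nearest start to the peak past Gpr157 was that of Slc2a5, 8770 bp away, and to that past Rpl12 that of Snora65, 3575 bp away. These 2 peaks are therefore not linked to Gpr157 or Rpl12 by nearest start. Gpr157 RNA was at 207.8 and 179.8 CPM in adults, 154.1 and 147.6 in PND8 Ki67-positive and 96.5 and 82.2 in repopulating Ki67-positive cells, so the groups did not overlap. It fell in both, with log2 differences of -0.36 and -1.11 (edgeR adjusted p = 0.0103 and 2.22e-06). The PND8 call of Gpr157 was lost without adult replicate 1 and without PND8 Ki67-positive replicate 2 (edgeR adjusted p of up to 0.139). Rpl12 rose by 0.52 at PND8 (edgeR adjusted p = 0.00302), while Fgd2, Cdkn1b and Capza2 did not pass there (log2 differences -0.16, 0.05 and 0.11; edgeR adjusted p = 0.171, 0.702 and 0.334).

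At the position limit, the 3 distal peaks nearest to a start lay 2504 bp from Xpnpep2 (9.69 tags), 2508 bp from Sin3a (70.5 tags) and 2509 bp from Plxdc1 (20.1 tags), and the 3 peaks left out just under it lay 2497, 2489 and 2489 bp from Syt11, Efna1 and Morn3 (6.34, 15.3 and 7.46 tags).

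Linked to the gene of the nearest start within 50000 bp, 6564 distal peaks (68.3%) belonged to 3844 genes of the 20999 in the count table, and 3044 of these passed the count filter. Linked genes had a higher median level than the table as a whole. Their median in PND8 Ki67-positive cells was 19.8 TPM (transcript abundance per length), against 2.53 over all genes of the table. It was 13.1 TPM for genes with 1 linked peak, 30.8 with 2 to 4 and 48.8 with 5 or more. The 1596 genes with a peak within 5000 bp past their end had a median of 28.0 TPM. The filter removes low genes, and linked genes differ in level from the rest, so the shares below are not matched for expression.

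Between PND8 Ki67-positive and adult cells, 766 linked genes rose and 895 fell of 3044 tested (edgeR's quasi-likelihood test, Benjamini-Hochberg adjusted p under 0.05 over 12230 genes), or 54.6% in all. Over all genes tested 49.5% were called, 25.1% higher and 24.3% lower, beside 25.2% and 29.4% of linked genes. The median log2 difference was -0.036 over linked genes and 0.0018 over all. Of the genes with 5 or more linked peaks, 34 rose and 51 fell of 141. Among genes of the 628 peaks of the shared core, 78 rose and 123 fell of 348 tested. Among genes of the 699 peaks with H3K27ac at PND8 and in no untreated adult Rpb2 or H3K27ac list, 110 rose and 72 fell of 319, with a median of 0.10. Genes with a peak past their end rose and fell about equally, 375 and 368 of 1425. In bulk RNA, fewer cells of a type and less RNA per cell cannot be told apart.

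Fewer linked genes differed within PND8. Between Ki67-positive and Ki67-negative cells 97 rose and 71 fell, 5.52% of those tested, beside 5.9% of all genes tested (2.75% higher, 3.15% lower). Without PND8 Ki67-positive replicate 2 these counts were 47 and 10, and without PND8 Ki67-negative replicate 1 the number that rose was 212. The number that fell was 30 without PND8 Ki67-positive replicate 1, and 45 and 44 without adult replicates 1 and 2, which share the estimate of the spread. With the header code, which PND8 libraries of the same replicate number share, as a term, 214 rose and 272 fell, beside 15.2% of all genes tested called in that fit (6.38% higher, 8.85% lower). From adult to repopulating Ki67-positive cells 767 rose and 767 fell, 50.4% of those tested, beside 44.9% of all genes tested (23.9% higher, 21.0% lower). Without repopulating Ki67-positive replicate 2, 475 fell. The comparisons of PND8 and of repopulation with adults share the same 2 adult libraries.

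The lists of cell functions and markers were linked unevenly. Linked were 24 of 36 genes of microglia identity and 26 of 35 immediate early and inflammatory genes. Of the genes of neonatal and disease-associated activation, 14 of 25 were linked. The linked share was 18.3% over all genes of the count table, and 24.9% over the genes that passed the count filter. S phase genes were linked in 9 of 40 cases (22.5%), a share below that of genes that passed the filter. G2/M genes were linked in 14 of 45 (31.1%) and interferon response genes in 7 of 25 (28.0%). No neuron marker (0 of 10) and no astrocyte marker (0 of 8) was linked, and 2 of 9 oligodendrocyte, 2 of 7 endothelial, 3 of 8 border macrophage, 2 of 10 monocyte or neutrophil, 1 of 6 erythroid and 2 of 8 lymphocyte markers were.

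Linked genes of microglia identity fell or were not called from adult to PND8 Ki67-positive cells: 16 of 24 fell and none rose, with a median of -0.37. Over all genes tested 24.3% fell and 25.1% rose. Cebpa, a transcription factor of myeloid cells with 5 linked peaks of up to 58.5 tags, was at 364 and 386 CPM in adults and 208 and 213 in PND8 Ki67-positive cells, without overlap. It fell by 0.83 on the log2 scale (SE 0.0924, edgeR adjusted p = 7.7e-06). Irf8, another such factor with 4 linked peaks, fell by 0.28 (SE 0.0833, edgeR adjusted p = 0.0134), a call lost without either adult replicate or PND8 Ki67-positive replicate 1 (up to 0.111), while Bin1, an endocytosis gene with 5, and Cebpb with 4 did not pass (-0.06 and -0.17; edgeR adjusted p = 0.61 and 0.411). Csf1r, the receptor that PLX5622 blocks, had 2 linked peaks and differed by -0.17 (edgeR adjusted p = 0.278), and no distal peak was linked to P2ry12, a purine receptor, or Spi1, which encodes PU.1.

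Of the neonatal and disease-associated activation genes, 10 of 14 linked rose and none fell at PND8 (median 0.77), beside 25.1% and 24.3% of all genes tested. Csf1, a growth factor that binds Csf1r, with 4 linked peaks, was at 64.1 and 61.2 CPM in adults and 199 and 182 in PND8 Ki67-positive cells. It rose by 1.60 ± 0.105 (SE, edgeR adjusted p = 5.13e-08) and was at 62.2 in both repopulating Ki67-positive libraries. Ccl3, a chemokine with 6 linked peaks, rose by 0.91 (edgeR adjusted p = 0.000113) at PND8 and fell by 1.81 in repopulating cells (edgeR adjusted p = 1.24e-06). Ctsl, a lysosomal protease with 3, rose by 0.63 (edgeR adjusted p = 3.22e-05), and Cd9 with 2 differed by -0.07 (edgeR adjusted p = 0.591).

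The immediate early and inflammatory genes carried the most linked peaks per list, 98 on 26 genes. Of these genes 5 rose and 8 fell at PND8 (2 rose without adult replicate 1), and 2 rose and 13 fell in repopulating cells. Over all genes tested 25.1% rose and 24.3% fell at PND8, and 23.9% rose and 21.0% fell in repopulating cells. Fos, a subunit of the factor AP-1, had 8 linked peaks of up to 72.0 tags. Its RNA was uneven between replicates, at 50.8 and 64.2 CPM in adults, 297.0 and 78.9 in PND8 Ki67-negative, 170 and 14.2 in PND8 Ki67-positive and 8.44 and 4.03 in repopulating Ki67-positive cells. The PND8 Ki67-positive libraries lay on both sides of the adults, and Fos fell by 3.16 in repopulating cells (edgeR adjusted p = 0.0181). Ier5 (8 linked peaks of up to 83.1 tags) and Atf3 (7) fell in repopulating cells by 0.55 and 1.15 (edgeR adjusted p = 0.0364 and 0.00286), and Ier3 (7) rose at PND8 by 2.19 (edgeR adjusted p = 0.00958). The calls of Fos and Ier5 were lost without adult replicate 2 and without either repopulating Ki67-positive replicate, and that of Ier5 without adult replicate 1 too (edgeR adjusted p of up to 0.103 and 0.163). That of Ier3 was lost without adult replicate 2 and without PND8 Ki67-positive replicate 1 (up to 0.276).

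All 14 linked G2/M genes rose in each of the 3 comparisons (12 of 14 within PND8 without PND8 Ki67-positive replicate 2), with median log2 differences of 6.03, 1.72 and 5.975, and all 9 linked S phase genes rose from adult to PND8 and to repopulation (2.68 and 2.49) while 4 fell and none rose from PND8 Ki67-negative to Ki67-positive cells. The Ki67 sort bears on these genes, and they were not an independent choice. Of all genes tested 25.1%, 2.75% and 23.9% rose in the 3 comparisons. Kif2c, a microtubule depolymerase with 3 linked peaks, one of which is the Gm25099 peak, rose by 6.40 (SE 0.432, edgeR adjusted p = 7.21e-08). Cenpf and Cenpa, kinetochore genes, rose by 5.76 and 4.88 (edgeR adjusted p = 1.35e-10 and 2.79e-08), and Cdk1, the kinase of mitotic entry, by 5.16 (edgeR adjusted p = 1.08e-09). Of the S phase genes, E2f8 rose by 4.51, Blm by 2.68, Ccne1 by 3.90 and Cdt1 by 1.45 (edgeR adjusted p = 4.47e-09, 1.2e-07, 2.72e-06 and 1.29e-05). Mki67 itself had 2 linked peaks of 11.6 and 7.46 tags about 20 kb before its start, in 10 and 9 H3K27ac lists.

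All 7 linked interferon response genes rose in repopulating cells (median 2.40), where at PND8 2 rose (none without adult replicate 1) and 1 fell. Of all genes tested 23.9% rose in repopulating cells, and 25.1% rose and 24.3% fell at PND8. Irf7, a factor of the interferon response, was at 10.8 and 14.3 CPM in adults, 13.3 and 18.4 in PND8 Ki67-positive and 97.2 and 119 in repopulating Ki67-positive cells. It rose in the last by 3.11 (SE 0.221, edgeR adjusted p = 1.38e-07). Ifitm3, Mx2 and Ddx58, antiviral genes, rose there by 3.53, 1.81 and 0.89 (edgeR adjusted p = 1.11e-06, 4.3e-07 and 1.59e-05).

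Linked markers of other cells moved as well. The border macrophage genes Cd163, F13a1 and Ms4a7, with 1 linked peak each, fell in repopulating cells, with log2 differences of -4.515, -3.335 and -3.795 (edgeR adjusted p = 0.000232, 0.000345 and 0.00373). Over all 8 markers of that list the summed level was 280.7 to 303.5 TPM in adults, 480.1 to 487.5 in PND8 Ki67-positive and 143.8 to 156.5 in repopulating Ki67-positive cells. The 10 monocyte or neutrophil markers summed to 111.4 to 376.3 TPM in adults, 19.3 to 21.6 in PND8 Ki67-positive and 22.4 to 29.5 in repopulating Ki67-positive cells. The 6 erythroid markers summed to at most 17.0 TPM in adults, 55.57 to 150 in PND8 Ki67-positive and at most 0.942 in repopulating Ki67-positive cells. The neuron, astrocyte, oligodendrocyte, endothelial and lymphocyte markers summed to 1.301 to 5.978, 22.3 to 191.2, 30.6 to 58.9, 15.4 to 39.0 and 20.1 to 68.7 TPM over the 10 libraries. Of all these markers 1, Cd3g of lymphocytes, was at 0 in every library, and the part of these cells in the RNA differences of linked genes was not tested.

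The linked genes with the largest rise at PND8 were of several kinds. Gpnmb, a glycoprotein of phagocytic microglia, was at 0.463 and 0.855 CPM in adults, 77.3 and 112 in PND8 Ki67-negative, 72.0 and 77.9 in PND8 Ki67-positive and 0.347 and 0.864 in repopulating Ki67-positive cells. The PND8 groups stood apart from the rest. It rose by 6.81 ± 0.35 (SE, edgeR adjusted p = 6.37e-09), and its linked peak of 14.2 tags, 19098 bp before its start, was in 3 ATAC-seq lists and in 2 H3K27ac lists, both of PND8 Ki67-positive cells. Gpx3, an extracellular glutathione peroxidase, was at 1.97 and 0.367 CPM in adults and 115 and 131 in PND8 Ki67-positive cells and rose by 6.68 ± 0.265 (edgeR adjusted p = 7.89e-10). Its linked peak of 16.0 tags was in the 10 H3K27ac lists that are not of untreated adults, and lay nearer to an edge of Hint1. The cell cycle genes Cdkn3, Ccnb1 and Nuf2 rose (edgeR adjusted p = 1.91e-08, 2.01e-09 and 1.54e-09). Cdkn3 was at 0 and 0.122 CPM in adults and 23.0 and 27.2 in PND8 Ki67-positive cells, too few adult counts to give its fold. Ccnb1 was at 0.463 and 0.122 CPM in adults and 81.2 and 89.7 in PND8 Ki67-positive cells, and its log2 difference of 8.10 ran from 7.485 without adult replicate 2 to 9.286 without adult replicate 1. Nuf2 rose by 7.16, with 6.711 and 7.761 without adult replicates 1 and 2. Matn1, a matrix protein gene, was listed at 0 counts in both adults and at 7.27 and 6.82 CPM in PND8 Ki67-positive cells, at least 39.5-fold higher against a floor of 3 counts over the group. Its linked peak of 52.2 tags lay 345 bp past the end of Laptm5, a lysosomal gene of blood-lineage cells, and nearer to that end than to the Matn1 start. By the same floor Gbp2b, 8030474K03Rik, Mybpc1 and Gm19345 were at least 13.3-fold, 12.8-fold, 10.1-fold and 8.59-fold higher.

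Among the linked genes with the largest fall, Tgm2, Csmd3, Catspere2, Afm and Cfap45 had linked peaks in all 12 H3K27ac lists. So had Cdkn3, Gbp2b and Mybpc1 among the largest rises, and 35.5% of all distal peaks were in all 12. Tgm2, a transglutaminase, was at 165 and 170 CPM in adults, 2.53 and 1.503 in PND8 Ki67-positive and 196 and 207 in repopulating Ki67-positive cells. It fell by 6.35 (SE 0.162, edgeR adjusted p = 5.13e-11) at PND8, and each of its 4 linked peaks, of 16.0 to 30.9 tags, was in all 12 H3K27ac lists and all 3 ATAC-seq lists, although 3 of the 4 lay nearer to an edge of D630003M21Rik. Csmd3, a large membrane protein gene, was at 276 and 242 CPM in adults and 1.87 and 0.925 in PND8 Ki67-positive cells, and fell by 7.51 (SE 0.272, edgeR adjusted p = 3.38e-10). Its linked peak had 5.97 tags and lay 46206 bp from its start. Catspere2 was at 2.54 and 2.08 CPM in adults and at 0 in PND8 Ki67-positive cells, at least 13.7-fold lower by the floor of 3 counts. Ablim1, H2-Aa (a class II antigen gene) and Hlf fell, with log2 differences of -4.889, -4.809 and -4.503 (edgeR adjusted p between 2.77e-08 and 2.25e-06). Afm, Cfap45 and Kcnj12 fell too (edgeR adjusted p between 0.000129 and 0.000865). In adults they were at 4.97 and 4.28, 1.85 and 3.05, and 6.71 and 4.52 CPM. In PND8 Ki67-positive cells they were at 0.110 and 0.231, 0.110 and 0.116, and 0.441 and 0.116 CPM. The latter are too few counts to give their folds.

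Of the 10 genes nearest to the most distal peaks at any distance, 4 passed the test between PND8 Ki67-positive cells and adults and 4 between repopulating Ki67-positive cells and adults, beside 49.5% and 44.9% of all genes tested. They were Ly86 with 24 peaks, Bcor, Klf3 and Maf with 23, Rreb1 and Zfp36l2 with 21, Kctd12, Marcks and Trib1 with 20 and Reep3 with 19. Maf, a macrophage transcription factor, had none of its 23 within 50000 bp of its start: they lay 56492 to 308653 bp away. It was at 618 and 592 CPM in adults, 735 and 694 in PND8 Ki67-positive cells and 381 and 348 in repopulating Ki67-positive cells. The rise of 0.24 at PND8 passed (SE 0.0931, edgeR adjusted p = 0.0467), and it fell by 0.73 in repopulating cells (SE 0.0943, edgeR adjusted p = 3.55e-05). Trib1, a pseudokinase gene, fell by 0.61 at PND8 (edgeR adjusted p = 0.00429), Zfp36l2, an RNA decay factor, fell by 0.30 (edgeR adjusted p = 0.0329) and Reep3 rose by 0.26 (edgeR adjusted p = 0.034). Ly86, a partner of a Toll-like receptor relative, rose in repopulating cells by 0.45 (edgeR adjusted p = 0.00277), where Klf3 and Rreb1 fell by 0.41 and 0.35 (edgeR adjusted p = 0.0279 and 0.0347). Leaving out adult or PND8 Ki67-positive libraries in turn, the PND8 calls of Maf, Trib1, Zfp36l2 and Reep3 were lost (edgeR adjusted p of up to 0.212, 0.0659, 0.243 and 0.14), and, leaving out adult or repopulating Ki67-positive libraries in turn, so were those of Klf3 and Rreb1 in repopulating cells (up to 0.147 and 0.235). Bcor, Kctd12 and Marcks passed in none of the 3 comparisons, and none of the 10 passed between Ki67-positive and Ki67-negative cells at PND8.

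**Figure D5:**
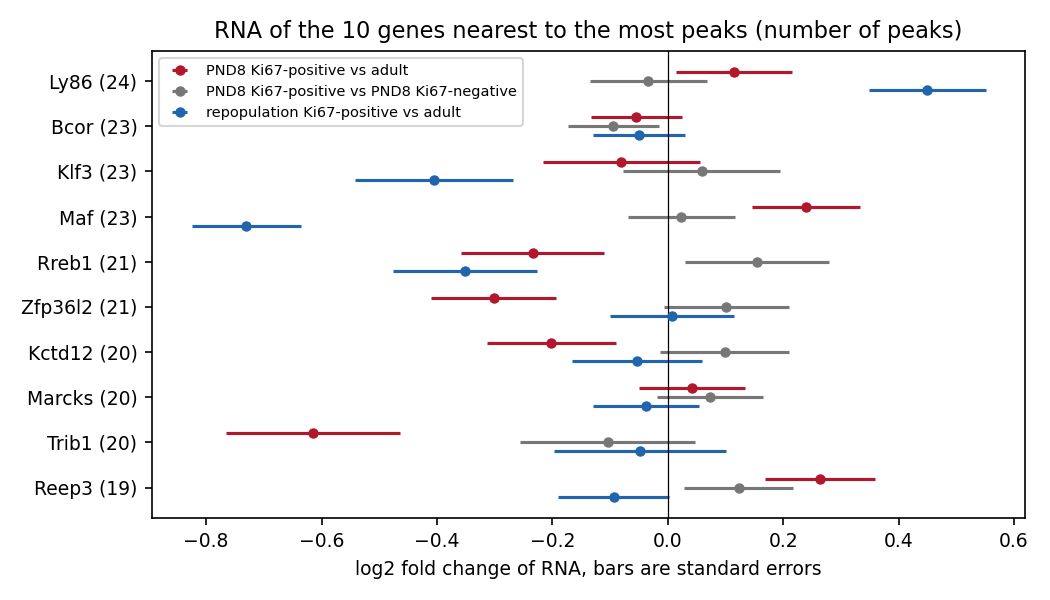
Log2 RNA fold change (horizontal axis, bars are standard errors, 2 libraries a group) in 3 comparisons for the 10 genes nearest to the most distal peaks (rows, number of peaks in brackets). Differences ran from -0.73 for Maf in repopulating cells to 0.45 for Ly86 in repopulating cells.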

How the data were processed

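Peak lists, RNA counts and TPM were used as the authors deposited them, and the members and gene lists were chosen with earlier results of these data known. Per the submitters' processing notes, STAR 2.7.0f, Bowtie2 2.3.4.1, HOMER 4.11 and DESeq2 were used with mm10. Per the file headers, HOMER called Rpb2 and H3K27ac peaks in each library against input at an FDR of 0.001 with at least 4-fold over input, H3K4me3 peaks at least 4-fold over input and at a Poisson p of 0.0001, and ATAC-seq peaks at that FDR without input. The deposited peak score, tag signal (scaled to 10000000 tags) and fold ratio over input are the authors' values. Python 3.11.15 applied the position rule. Overlap meant 1 bp or more. The authors' gene counts were fitted in R 4.3.3 with edgeR 4.0.16 (filterByExpr, TMM, quasi-likelihood, 10 libraries in 5 groups), which left 12230 genes. CPM are TMM-normalised from these counts, and the authors' TPM served for levels between genes. The labels call the 2 RNA libraries of a group independent biological replicates. Alternatives used DESeq2 1.42.0 and limma 3.58.1. In simulated counts for PND8 Ki67-positive against adult cells (11990 genes), 30 of 50 genes changed 1.5-fold, 46 of 50 changed 2-fold, 50 of 50 changed 4-fold and 50 of 50 changed 8-fold were recovered, with 14 false calls. The simulated counts had 1 common spread for all genes and only these genes changed. Recovery and false calls at larger or uneven spread, or with many genes changed, were therefore not tested. Intervals for shares are exact binomial (95%) and cover counting error only.

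Named regions were the 6 highest by tag count of all, in the shared core, in the set with PND8 marks and in no untreated adult list, and in the set with no mark, and the 3 on each side of 2500 bp. Named genes were those of their nearest starts, the 10 with most distal peaks, the 10 largest rises and falls among linked genes, and up to 4 per list by linked peaks. Others are said to have been chosen after their values were seen. Peak sequences were not analysed here. One gene that this rule names is not reported here.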

Additional observations from a re-analysis of the deposited data

How the results depend on the processing

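The differences of H3K27ac overlap between distal peaks and the other kinds kept their direction under every setting run. So did that between peaks within 5000 bp past an end and peaks before a start. Each also kept the smallest exact permutation p of its design. These settings did not match the kinds of peak by tag count, or the sides of a gene by distance. The PND8 difference in overlap stayed between 5.227 and 8.095 points with 1 library left out, and its value relative to peaks near starts between 1.039 and 2.271. With the highest-scoring regions of each list they were 2.361 and -1.807, and within 1000 bp of a region the second was 2.716; the cause was not tested. The Ki67 difference ranged from -1.056 to 4.68 with 1 library left out, and was -0.7228 without cuprizone Ki67-positive replicate 2. Settings chosen after the data were seen moved overlaps: counting the peak's midpoint, peaks within 1000 bp, and the peaks above the median score gave 19.94%, 29.29% and 39.78% for adult Rpb2, 28.42%, 33.51% and 40.82% for H3K4me3, and 63.06%, 87.97% and 91.09% for ATAC-seq. Within 5000 bp past an end the ATAC-seq shares were 33.2%, 52.28% and 67.41%, and before a start at any distance 71.24%, 97.26% and 95.84%.

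Linking within 10000 bp, which leaves fewer genes, gave 759 linked genes called between PND8 and adult (346 higher, 413 lower), 79 between PND8 Ki67-positive and Ki67-negative (43 and 36) and 705 between repopulation and adult (366 and 339). With 1 library left out the 3 counts ranged from 1283 to 1837 (590 to 844 higher, 671 to 993 lower), from 57 to 299 (47 to 212, 10 to 92) and from 1034 to 1741 (559 to 834, 475 to 923). The count within PND8 was 327 without the count filter (165 and 162), 105 with only the groups compared (30 lower), 486 with the header code as a term (214 and 272), and 100 by limma on log2(TPM + 0.1) (35 lower), with 41 lower on log2(TPM + 1). Same-numbered libraries deviated together within PND8 (r = 0.338) and within repopulation (r = 0.263), where they also share a header code, and r was at most 0.0974 elsewhere. No label says what a number or code marks, so the block was kept as an alternative. With the replicate block that count was 315 (150 higher, 165 lower), beside 10.0% of all genes tested. The 10 largest rises and 10 largest falls at PND8 kept direction and call under the alternatives run. Of all named genes, 54, 12 and 54 were called in the 3 comparisons, and none changed direction. Of these, 13, 4 and 14 lost the call under at least 1 alternative, mostly with 1 library left out. A further 10, 15 and 6 named genes that did not pass in the main fit were called under at least 1 alternative. A gene said not to pass, above all within PND8, can therefore depend on the fit. With 1 PND8 Rpb2 library, nothing here separates age from library at the distal peaks, and the adult lists are less deep in peaks.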
